A study of Mus musculus with 8 samples.

Results

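The voltage-gated sodium and calcium channel subunit genes were taken as the protein-coding genes with a GENCODE M21 symbol of the Scn a and b series, the Cacna1 series, the Cacna2d series or the Cacnb series, as far as they are reported. Described here are 29 of the 54446 genes in the table, 12 of them sodium and 17 calcium channel genes. Of these, 27 had enough counts to be tested, and Scn4a and Scn11a did not. Poly(A) RNA of mouse medial prefrontal cortex was profiled in 8 bulk libraries, of which 4 carry the label Ino80e overexpression and 4 the label wild type. The study altered the expression of Ino80e, a subunit gene of the INO80 chromatin remodelling complex, by adeno-associated virus injected into this region. The strain, age and sex of the mice, the promoter of the virus and the virus, if any, given to wild-type mice are not stated by the labels. Neither is the number of mice behind a library, and the p-values below therefore measure library-to-library spread, which may be technical.

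Voltage-gated sodium channels open on depolarization and carry the upstroke of the action potential. Each is built on a large pore-forming alpha subunit, encoded by an Scn gene with the suffix a, and is joined by smaller beta subunits, encoded by the genes with the suffix b, which change gating and bind cell adhesion partners. Voltage-gated calcium channels turn depolarization into calcium entry. L-type channels (Cacna1c, Cacna1d, Cacna1f, Cacna1s) couple depolarization to gene expression and to muscle contraction. The P/Q, N and R types (Cacna1a, Cacna1b, Cacna1e) couple it to transmitter release, and the low-threshold T types (among them Cacna1h and Cacna1i) to burst firing. The alpha2delta subunits (Cacna2d) and the cytoplasmic beta subunits (Cacnb) bring the L, P/Q, N and R type pores to the membrane.

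Library totals ran from 44762378 to 60490153 counts. Levels are given in CPM, counts scaled to a common TMM-normalised library size. Ino80e stood at 74.1, 23.4, 23.3 and 45.04 CPM in replicates 1 to 4 labelled overexpression and at 19.5 to 25.5 CPM in wild type, so replicates 2 and 3 of the first group lay inside the wild-type range. Between the labelled groups the log2 fold change of Ino80e was 0.91 (SE 0.42, edgeR adjusted p = 0.51). Directions below are therefore those of the libraries labelled overexpression. The tissue label was checked on marker genes. Excitatory neuron markers summed to 6638 to 8061 CPM in wild type and 7086 to 8115 CPM under the overexpression label, with the vesicular glutamate transporter gene Slc17a7 at 1791 CPM or more in every library. Skeletal muscle markers summed to at most 13.2 CPM. Markers of tissues outside the cortex varied between libraries: striatal neuron markers summed to 211 to 485 CPM, and choroid plexus markers to 1117 CPM in wild-type replicate 4 against 7.88 to 108 CPM in the other 7.

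Among the pore-forming sodium channels, Scn2a, Scn8a and Scn1a supplied nearly all of the RNA. Levels of different genes are compared per kilobase of annotated exon, since a longer transcript yields more fragments. In wild type Scn2a, the channel of excitatory neuron axons, stood at 36.4 ± 2.92 CPM per kilobase (SD, n = 4) and took 41.9% ± 0.796 of the length-scaled RNA of the pore-forming sodium channel genes described. Scn8a, the channel of mature axon initial segments and nodes of Ranvier, stood at 29.5 ± 2.53 CPM per kilobase and 34.01% ± 0.835 of the class. Scn1a, which is prominent in parvalbumin interneurons, stood at 16.8 ± 1.30 CPM per kilobase and 19.3% ± 0.204. The embryonic brain channel gene Scn3a followed at 3.13 ± 0.280 CPM per kilobase and 3.60% ± 0.0642 of the class.

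The remaining pore-forming sodium channel genes described were each under 1 CPM per kilobase. Scn7a, which encodes a sodium-sensing channel of glia and non-excitable cells, stood at 0.786 ± 0.139 CPM per kilobase in wild type and the sensory neuron gene Scn9a at 0.168 ± 0.0470. Scn10a, also of sensory neurons, had 6 to 29 counts per library. The skeletal muscle gene Scn4a had 8 counts over all 8 libraries together and the sensory neuron gene Scn11a 26. Neither of the last pair was tested.

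The order of the 3 leading pore genes was the same in each of the 8 libraries. Scn2a took 38.9% to 42.7% of the class under the overexpression label and 40.8% to 42.7% in wild type. Scn8a took 34.6% to 36.8% and 33.04% to 35.1%. Scn1a took 17.98% to 20.4% and 19.1% to 19.6%. For each of these genes the ranges of the groups overlapped, and the shares were not tested.

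Of the auxiliary sodium channel genes described, Scn2b, whose product is linked to the alpha subunit by a disulfide bond, stood at 84.5 ± 5.59 CPM per kilobase in wild type, the highest level per kilobase of the 27 tested members. Scn4b, abundant in striatal neurons and linked to resurgent sodium current, stood at 27.8 ± 3.40 and Scn3b at 21.1 ± 2.06 CPM per kilobase.

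**Figure D1:**
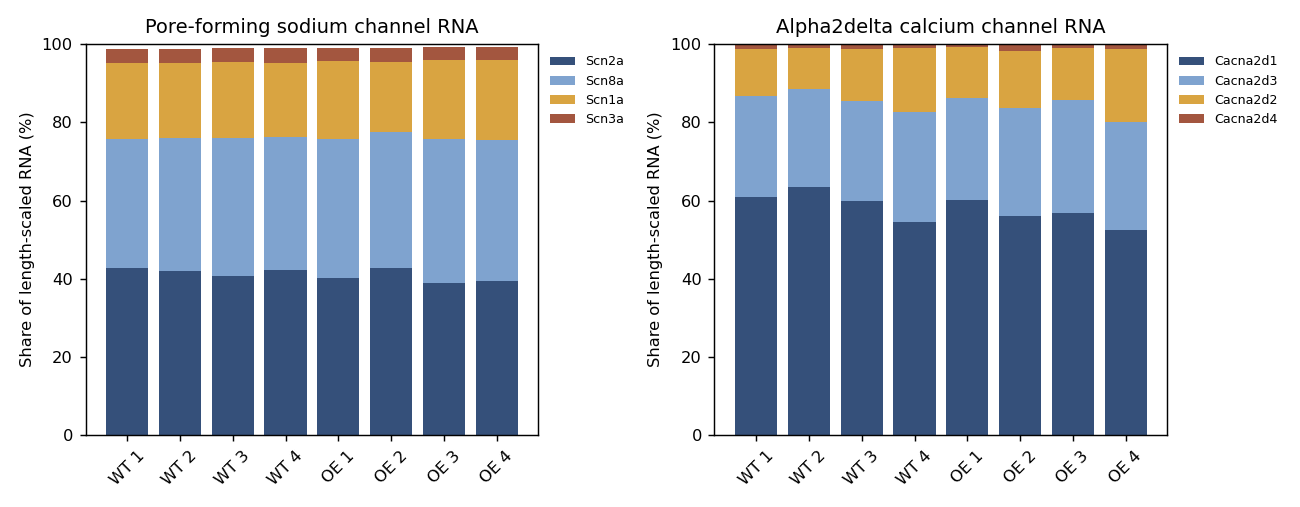
Share of each gene in the length-scaled RNA of the pore-forming sodium channel genes described (left) and of the alpha2delta calcium channel genes (right), by library, in percent; bars are stacked, WT is wild type, OE is labelled overexpression, and numbers are replicates. Scn2a holds 38.9% to 42.7% and Cacna2d1 52.4% to 63.4% over the 8 libraries; pore genes below the leading 4 are not drawn.

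The pore-forming calcium channel genes described were led by the presynaptic types and by a T type. Per kilobase in wild type, the P/Q-type gene Cacna1a stood at 17.5 ± 1.36 CPM, the T-type gene Cacna1i at 17.05 ± 1.14, the N-type gene Cacna1b at 14.1 ± 0.619 and the R-type gene Cacna1e at 11.96 ± 0.970. The other T-type gene described, Cacna1h, stood at 6.15 ± 0.362. The neuronal L-type genes were lower, with Cacna1c at 4.51 ± 0.198 and Cacna1d at 3.92 ± 0.185 CPM per kilobase. The skeletal muscle gene Cacna1s and the retinal gene Cacna1f lay at 0.0671 ± 0.0263 and 0.0387 ± 0.00645.

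Each auxiliary calcium channel class had 1 leading member. Cacna2d1, which encodes the alpha2delta subunit bound by gabapentin, stood at 22.9 ± 2.88 CPM per kilobase in wild type and took 59.7% ± 3.70 of its class, ahead of Cacna2d3 at 9.95 ± 0.451, Cacna2d2 at 4.95 ± 0.658 and the retinal gene Cacna2d4 at 0.448 ± 0.0619. Among the beta subunits Cacnb3 stood at 68.1 ± 5.53 and took 50.6% ± 2.23 of the class, followed by Cacnb1 at 37.6 ± 1.47, Cacnb4, which is mutated in the ataxic lethargic mouse, at 24.99 ± 3.01, and Cacnb2 at 3.77 ± 0.224.

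Over all 27 tested members the wild-type level per kilobase spanned 2714 times between Scn2b and Scn10a. Of the 26 pairs of neighbours in this order, 14 overlapped between wild-type libraries, so that Scn8a and Scn4b, Cacna1a and Cacna1i, and Cacna1i and Scn1a cannot be ranked against each other. Scaling by the longest annotated transcript instead of all exons put Cacnb3 (99.8 CPM per kilobase) above Scn2b (84.5) and raised Cacna2d3 to 23.5 and Cacnb2 to 9.93. It also put Cacna1e (20.2) above Cacna1i (17.2) and Cacna1b (14.4), so the order of these calcium pore genes depends on the length used. In bulk tissue a low level of RNA per cell and a small number of expressing cells cannot be told apart.

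**Figure D2:**
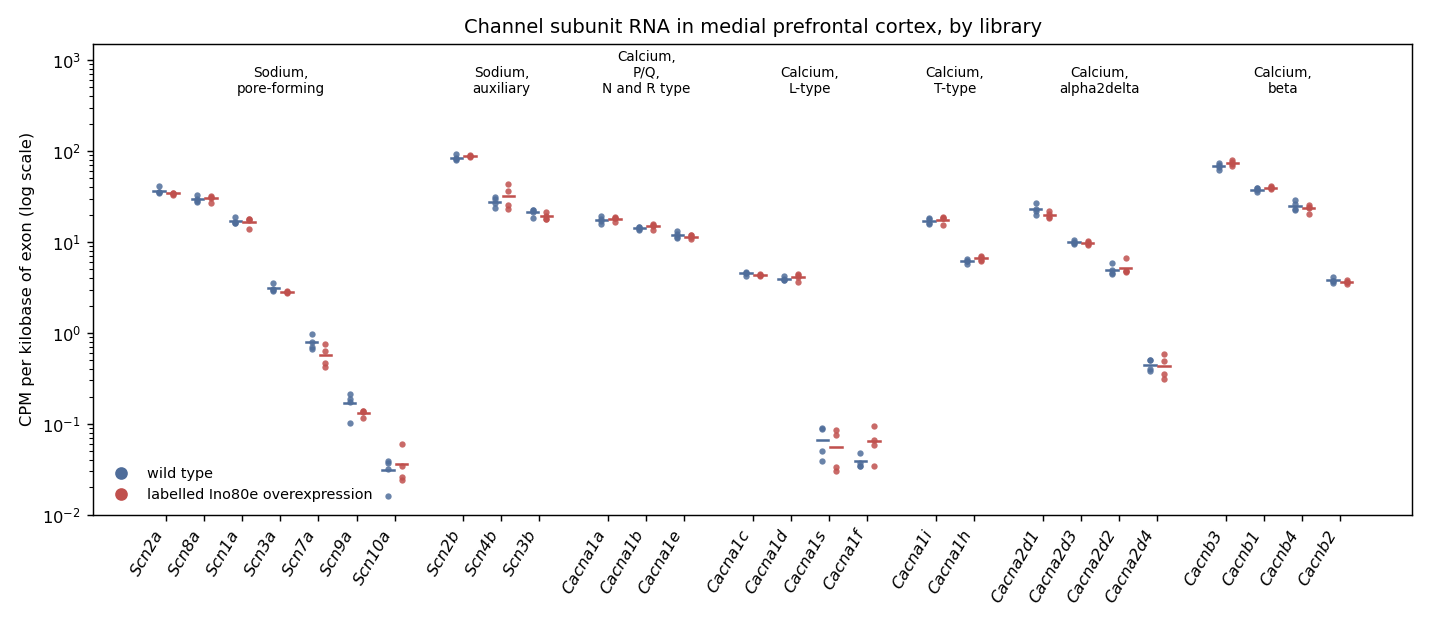
Level of the 27 tested members in CPM per kilobase of exon (log scale), grouped by subunit class; each point is a library, short lines are group means of 4 libraries, blue is wild type and red is labelled overexpression. Scn2b is highest at 84.5 ± 5.59 in wild type, the peripheral, muscle and retinal genes lie far below, and for each gene the points of the groups overlap.

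None of the 27 members differed between the libraries labelled overexpression and wild type past an edgeR adjusted p of 0.05, where 6 of 17636 genes (0.034%) did. Adjusted p-values of the members ran from 0.38 to 0.981, and DESeq2 (44 genes, 0.249%) and limma-voom (2 genes, 0.0113%) called no member either. At an unadjusted edgeR p under 0.05, 3 members stood apart (11.1%, against 10.7% of all genes), and all were lower: Scn7a, Scn3a and Cacna2d1. The share on the lower side was 5.43% of all genes. On the higher side there were 0 members, against 5.24% of all genes. The groups did not overlap for 0 of 27 members, against 2.82% of all genes on the higher and 3.02% on the lower side. The median log2 fold change was -0.0068 over the members and 0.0016 over all genes tested.

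The intervals bound the difference between the groups as labelled. They do not bound the effect of raised Ino80e, since replicates 2 and 3 labelled overexpression had Ino80e inside the wild-type range. For 21 members with a wild-type mean of at least 10 CPM, log2 fold changes lay between -0.20 and 0.20, and for 18 of the 21 the 95% interval stayed within a 1.25-fold change either way. The exceptions were Cacna2d1, Cacna2d2 and Scn4b. Between the libraries of a group, these 21 genes varied by a median of 7.76% of the mean in wild type, from 3.91% for Cacnb1 to 13.3% for Cacna2d2, and by 6.80% in the libraries labelled overexpression, from 1.91% for Scn2b to 29.4% for Scn4b. The widest intervals were those of Cacna1f (-0.22 to 1.66 on the log2 scale), Cacna1s and Scn10a, each under 1 CPM, followed by that of Scn4b.

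**Figure D3:**
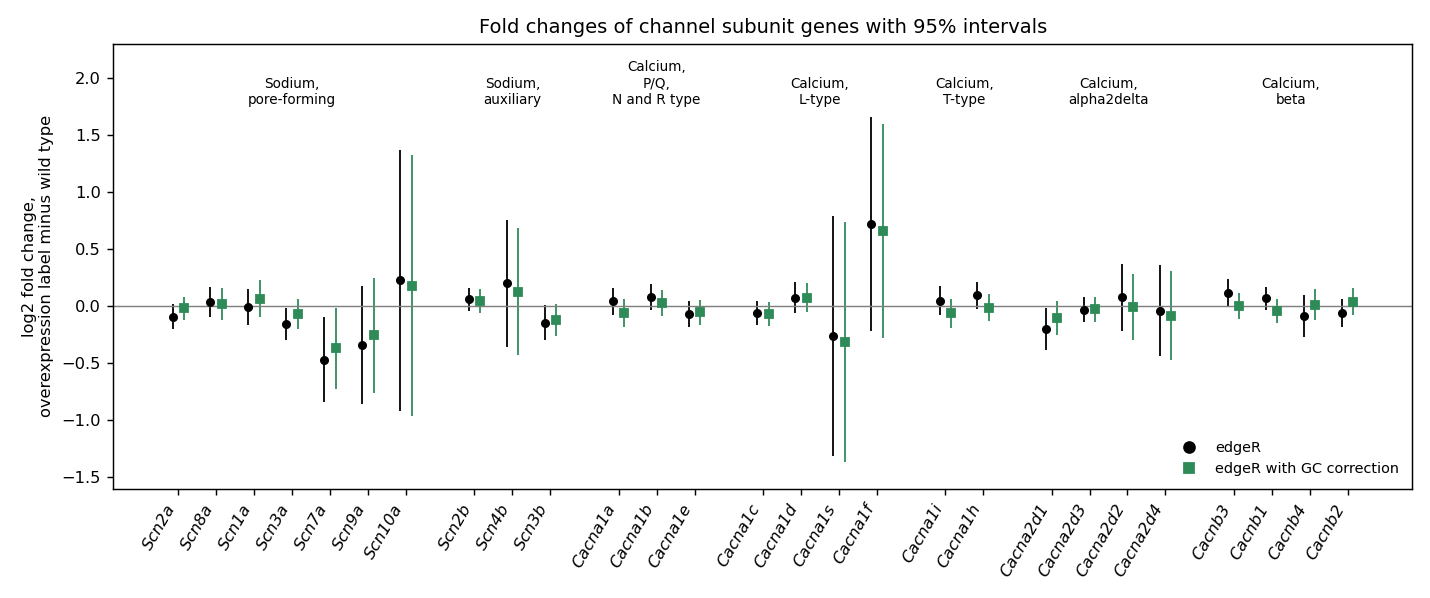
Log2 fold change of each tested member, libraries labelled overexpression minus wild type, with 95% intervals, from edgeR (black circles) and from edgeR after correction for GC content (green squares). Scn7a, Scn3a and Cacna2d1 have black intervals that do not reach 0; after the correction only that of Scn7a does not reach 0.

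Scn7a had the largest shift among members of at least 1 CPM, with 5.52, 4.63, 3.46 and 3.08 CPM in replicates 1 to 4 labelled overexpression and 5.86, 7.18, 4.94 and 5.09 CPM in wild-type replicates 1 to 4. Replicates 2, 3 and 4 labelled overexpression lay below every wild-type library and replicate 1 lay inside the wild-type range. The gene, on the minus strand of chromosome 2 between 66673425 and 66784914 (GRCm38), had a log2 fold change of -0.47 (SE 0.18, edgeR adjusted p = 0.38). The unadjusted edgeR p was 0.017, and it was under 0.05 in 5 of the 8 fits that left out 1 library each, with a highest value of 0.086 without wild-type replicate 2.

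Scn3a stood at 34.3, 34.8, 34.9 and 36.4 CPM in replicates 1 to 4 labelled overexpression and 36.2, 44.04, 37.3 and 38.3 CPM in wild-type replicates 1 to 4. The libraries labelled overexpression were all close to 35.1 CPM and overlapped the lowest wild-type library, and the highest value was that of wild-type replicate 2. Its log2 fold change of -0.15 (SE 0.068, edgeR adjusted p = 0.43) came with an unadjusted edgeR p of 0.036, which was 0.18 without wild-type replicate 2, with a log2 fold change of -0.090. Scn2a, its neighbour on chromosome 2 in the opposite orientation, stood at 444, 422, 433 and 440.4 CPM in replicates 1 to 4 labelled overexpression and 447, 518, 437 and 449 CPM in wild-type replicates 1 to 4. Wild-type replicate 2 was again the highest, and Scn2a had a log2 fold change of -0.091 (SE 0.052, edgeR adjusted p = 0.54).

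Scn8a and Scn1a showed no shift beyond their spread. Scn8a ranged over 423 to 507 CPM under the overexpression label and 428 to 521 CPM in wild type, with a log2 fold change of 0.039 (SE 0.062, edgeR adjusted p = 0.85) and a 95% interval of -0.091 to 0.17. Scn1a ranged over 155 to 199 CPM and 178 to 208 CPM, with a log2 fold change of -0.0068 (SE 0.074, edgeR adjusted p = 0.98) and an interval of -0.16 to 0.15. The sign of the Scn1a value changed under several alternatives. Scn9a and Scn10a had log2 fold changes of -0.34 and 0.23, with intervals of -0.85 to 0.18 and -0.91 to 1.37.

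None of the auxiliary sodium channel genes described reached an unadjusted edgeR p under 0.05. Scn2b ranged over 401 to 419.7 CPM and 373 to 432 CPM (log2 fold change 0.062, interval -0.040 to 0.16). Scn3b ranged over 96.8 to 117 CPM and 99.1 to 123 CPM (log2 fold change -0.14, interval -0.30 to 0.0078).

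Among the calcium channel genes, the value farthest from 0 relative to its error was that of Cacna2d1. It stood at 275, 230.0, 251 and 233 CPM in replicates 1 to 4 labelled overexpression and 287, 331, 274 and 245 CPM in wild-type replicates 1 to 4. Replicates 2 and 4 labelled overexpression were the lowest of all 8 libraries and wild-type replicate 2 was the highest, while overexpression replicates 1 and 3 fell inside the wild-type range. Cacna2d1, on the plus strand of chromosome 5 between 15934691 and 16374511, had a log2 fold change of -0.20 (SE 0.084, edgeR adjusted p = 0.43) and an unadjusted edgeR p of 0.033. That p was under 0.05 in 3 of the 8 fits that left out 1 library each, and without wild-type replicate 2 the log2 fold change was -0.12. With no low-count filter in edgeR, its adjusted p was 0.057, the lowest adjusted p of any member under any of the 19 alternatives. The other alpha2delta genes had log2 fold changes of 0.078 for Cacna2d2, -0.030 for Cacna2d3 and -0.038 for Cacna2d4.

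The beta subunit genes divided by direction without passing the test. Cacnb3 stood at 320.3, 288, 306 and 272 CPM in replicates 1 to 4 labelled overexpression and 280.1, 268, 298 and 245 CPM in wild-type replicates 1 to 4, a log2 fold change of 0.12 (SE 0.060, edgeR adjusted p = 0.48). Overexpression replicate 1 was the highest and wild-type replicate 4 the lowest library, and the other values of the groups overlapped. Cacnb1 had a log2 fold change of 0.071 (interval -0.030 to 0.17), Cacnb2 of -0.061 (-0.18 to 0.062) and Cacnb4 of -0.084 (-0.27 to 0.10).

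None of the pore-forming calcium channel genes reached an unadjusted edgeR p under 0.05, and those of at least 10 CPM had log2 fold changes between -0.068 and 0.10. The P/Q-type gene Cacna1a ranged over 189 to 216 CPM and 182 to 218 CPM (log2 fold change 0.046, interval -0.072 to 0.16). The N-type gene Cacna1b ranged over 134 to 157 CPM and 133 to 145 CPM (log2 fold change 0.080, interval -0.034 to 0.19), and the R-type gene Cacna1e over 273 to 297 CPM and 281 to 333 CPM (log2 fold change -0.068, interval -0.18 to 0.045). For the L-type genes Cacna1c and Cacna1d the log2 fold changes were -0.055 (-0.16 to 0.051) and 0.077 (-0.057 to 0.21). For the T-type genes Cacna1h and Cacna1i they were 0.10 (-0.019 to 0.22) and 0.048 (-0.078 to 0.17). Cacna1f and Cacna1s, each under 1 CPM in every library, had log2 fold changes of 0.72 and -0.26 with intervals of -0.22 to 1.66 and -1.31 to 0.79.

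Exons of 9 members overlap those of another gene on the opposite strand: Cacna1a, Cacna1d, Cacna1h, Cacna1s, Cacna2d2, Cacnb1, Cacnb2, Cacnb4 and Scn9a. The libraries keep the strand, but the labels do not say whether counting used it, so the counts of these 9 are uncertain. For Cacnb4 the overlap with A430018G15Rik covers 1433 bases of exon, and for Cacna1d that with Chdh, a choline dehydrogenase gene, covers 589.

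The direction of the members followed the base composition of their transcripts. Transcript GC content ran from 38.97% for Cacnb2 to 61.3% for Cacnb3. Of the 13 members below the median of 50.5%, 12 had a fold change below 0, and of the 14 at or above it 12 had one above 0. The rank correlation of log2 fold change with GC content was 0.723 over the 27 members, some of them under 1 CPM. It was 0.837 over the 24 members of at least 1 CPM and 0.638 over 11326 genes of at least 5 CPM. These values describe genes measured in the same 8 libraries and not independent replicates. By library, the slope of log2 CPM per 10 points of GC over those 11326 genes was 0.042, 0.035, 0.090 and 0.053 in replicates 1 to 4 labelled overexpression and -0.069, -0.13, 0.021 and -0.045 in wild type. Each slope under the overexpression label was above each wild-type slope, so the GC trend and the label cannot be told apart. Wild-type replicate 2, with the lowest slope, was the highest of the 8 libraries for 14 of the 27 members, whose GC contents ran from 38.97% to 58.4%.

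With a correction for this trend, 21 of the 27 log2 fold changes lay nearer 0 and 6 lay farther from it. For genes that follow the trend, a move towards 0 was built into the correction, which was fitted on these same libraries. After it, 1 of 27 members stood at an unadjusted edgeR p under 0.05 on the lower side (3.70%, against 2.59% of all genes) and 0 on the higher side (against 2.49%), and 5 genes of 17636 (0.0284%) passed the adjusted threshold, none of them a member. Scn3a went from a log2 fold change of -0.15 to -0.067 (SE 0.063) and Cacna2d1 from -0.20 to -0.10 (SE 0.070). Scn7a remained the member under 0.05, at -0.37 (SE 0.17) with an unadjusted edgeR p of 0.043 and an adjusted p of 0.97. Its corrected levels were 5.63, 4.74, 3.67 and 3.18 CPM in the libraries labelled overexpression and 5.53, 6.63, 5.06 and 4.99 CPM in wild type, still overlapping. For 8 members the sign turned: Cacna1a, Cacna1h, Cacna1i, Cacna2d2 and Cacnb1 went below 0, and Cacnb2, Cacnb4 and Scn1a went above it.

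**Figure D4:**
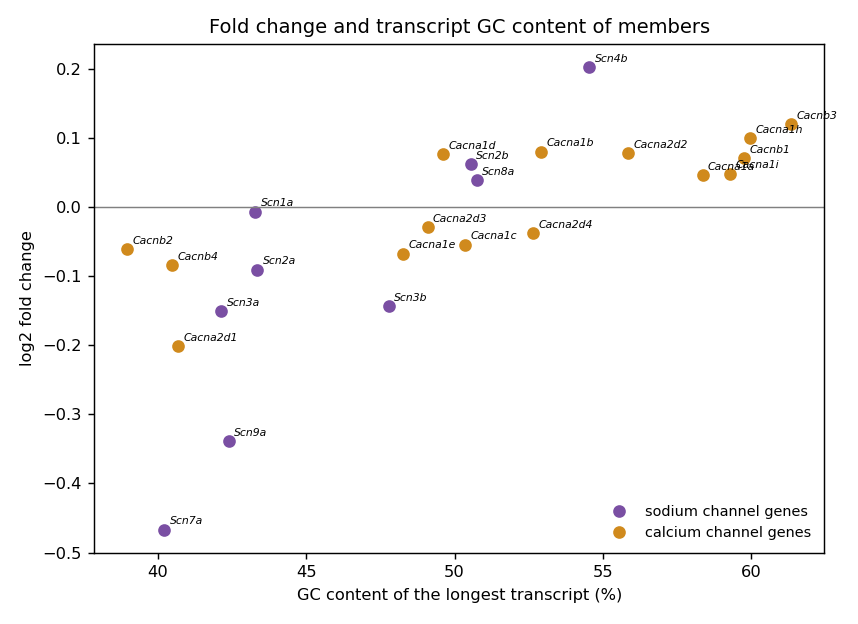
Log2 fold change (libraries labelled overexpression minus wild type) against the GC content of the longest annotated transcript, in percent, for the 24 members with a wild-type mean of at least 1 CPM; purple points are sodium and orange points calcium channel genes. The points run from Scn7a at 40.2% GC and -0.47 to Cacnb3 at 61.3% GC and 0.12.

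The position of the genes and their promoters give another view of this composition. The 5 genes Scn3a, Scn2a, Scn1a, Scn9a and Scn7a lie within chromosome 2 from 65457118 to 66784914 and have transcript GC contents of 42.1%, 43.4%, 43.3%, 42.4% and 40.2%. Their log2 fold changes were -0.15, -0.091, -0.0068, -0.34 and -0.47, and -0.067, -0.016, 0.069, -0.25 and -0.37 with the GC correction. RefSeq promoter windows (GRCm38.p6, 250 bases before to 50 after a start) were found for 22 of the 27 tested members, 32 windows in all. Over these 22 genes the rank correlation of log2 fold change was 0.102 with promoter GC and 0.697 with transcript GC, again a description across genes.

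A few windows show how far a promoter and its transcript can differ in base composition, with every CpG in capitals. Scn2a is the most abundant pore gene, Scn7a and Cacna2d1 had AT-rich transcripts and an unadjusted edgeR p under 0.05, and Scn4b varied most among the 21 members of at least 10 CPM within the group labelled overexpression.
Scn2a: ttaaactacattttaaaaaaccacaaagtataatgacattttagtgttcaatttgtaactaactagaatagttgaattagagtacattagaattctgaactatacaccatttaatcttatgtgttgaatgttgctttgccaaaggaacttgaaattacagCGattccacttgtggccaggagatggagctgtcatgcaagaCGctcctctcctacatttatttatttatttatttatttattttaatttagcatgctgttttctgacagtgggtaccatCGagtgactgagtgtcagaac
Scn7a: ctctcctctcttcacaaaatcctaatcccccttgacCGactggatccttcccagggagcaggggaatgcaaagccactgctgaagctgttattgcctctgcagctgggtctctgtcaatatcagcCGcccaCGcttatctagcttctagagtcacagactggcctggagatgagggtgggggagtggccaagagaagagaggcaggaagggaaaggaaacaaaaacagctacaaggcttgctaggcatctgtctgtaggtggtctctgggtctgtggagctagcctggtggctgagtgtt
Cacna2d1: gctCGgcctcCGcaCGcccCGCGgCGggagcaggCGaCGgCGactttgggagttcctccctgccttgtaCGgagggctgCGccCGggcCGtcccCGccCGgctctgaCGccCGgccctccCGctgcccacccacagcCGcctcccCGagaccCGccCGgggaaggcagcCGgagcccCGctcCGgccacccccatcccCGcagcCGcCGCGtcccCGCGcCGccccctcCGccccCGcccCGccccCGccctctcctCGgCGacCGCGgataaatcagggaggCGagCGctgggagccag
Scn4b: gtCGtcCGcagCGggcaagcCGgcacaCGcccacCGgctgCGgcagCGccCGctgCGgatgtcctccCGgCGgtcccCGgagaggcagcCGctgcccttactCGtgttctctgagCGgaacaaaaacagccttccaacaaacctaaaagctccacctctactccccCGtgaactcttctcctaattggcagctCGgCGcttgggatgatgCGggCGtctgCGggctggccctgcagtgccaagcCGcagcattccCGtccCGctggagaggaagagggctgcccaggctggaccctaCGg
The Scn2a window (chr2:65620519-65620818, plus strand) held 3 CpG at 33.00% GC and is the first of its listed starts. That of Scn7a (chr2:66784861-66785160, minus strand) held 3 CpG at 54.00% GC. That of Cacna2d1 (chr5:15934441-15934740, plus strand) held 42 CpG at 80.00% GC, although its transcript has 40.7% GC. That of Scn4b (chr9:45138374-45138673, plus strand) held 26 CpG at 66.3% GC. The GC box GGGCGG, searched on both strands, was in 14 of the 32 member windows (43.8%), against 35.7% of all 32851 windows in the RefSeq table, and TATAAA in 2 of 32 (6.25%), against 13.6%.

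Scn4b had the widest spread of the 21 members of at least 10 CPM within the group labelled overexpression. It stood at 114, 128, 183 and 214 CPM in replicates 1 to 4 labelled overexpression and 134, 146, 118 and 157 CPM in wild-type replicates 1 to 4. Replicates 3 and 4 labelled overexpression were the highest of all libraries and replicate 1 of the same group was the lowest, and the gene had a log2 fold change of 0.20 (SE 0.23, edgeR adjusted p = 0.79) with a 95% interval of -0.35 to 0.76. Without overexpression replicate 4 the log2 fold change was 0.030. The summed striatal neuron markers moved with it, at 211, 394, 399 and 485 CPM in replicates 1 to 4 labelled overexpression and 347, 287, 226 and 433 CPM in wild type. All 8 genes of that marker list were tested, and none passed an unadjusted edgeR p of 0.05 between the groups.

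Over the 8 libraries, log2 levels of Scn4b and of the striatal sum had a Pearson r of 0.799 (exact permutation p = 0.019, two-sided) and a Spearman rho of 0.881 (exact permutation p = 0.0072). All 27 members were set against this sum, and none passed after Benjamini-Hochberg adjustment over the 27 (for Scn4b, adjusted permutation p = 0.5 for r and 0.2 for rho). The 2 libraries farthest from the median of the sum were overexpression replicate 1 (211 CPM) and wild-type replicate 3 (226 CPM). Without them the sum was 394, 399 and 485 CPM under the overexpression label and 347, 287 and 433 CPM in wild type. The sum was then mostly higher under that label, so an r over these 6 libraries cannot be told apart from the label. Without the 2 farthest libraries, r for Scn4b was 0.614. Cacna2d1 had an r of -0.624 with the same sum (exact permutation p = 0.1) and a rho of -0.667 (exact permutation p = 0.083), and r without the 2 farthest libraries was -0.915. Scn7a had an r of -0.583 (exact permutation p = 0.13) and a rho of -0.619, and r without the 2 farthest libraries was -0.851. For Cacnb3, r was -0.585 (exact permutation p = 0.13) and rho -0.524, with an r of -0.090 without the 2 farthest. The part of striatal tissue in the values of Scn4b, Cacna2d1, Scn7a and Cacnb3 was not tested.

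In each group Cacna2d2 was highest in the same library as the striatal sum. Cacna2d2, an alpha2delta gene mutated in the epileptic ducky mouse, stood at 37.9, 38.00, 37.4 and 52.99 CPM in replicates 1 to 4 labelled overexpression and 35.97, 35.7, 38.8 and 46.9 CPM in wild-type replicates 1 to 4. Replicate 4 was the highest of each group, and overexpression replicate 4 stood well above the other 3 of its group. The Pearson r with the striatal sum was 0.582 (exact permutation p = 0.11, adjusted permutation p = 0.70). The Spearman rho was 0.50 (exact permutation p = 0.22), and r without the 2 farthest libraries was 0.834. Wild-type replicate 4 was also the library rich in choroid plexus markers, and overexpression replicate 4, at 12.9 CPM of them, was not. Scn4b, Cacna2d1, Cacna2d2, Scn7a and Cacnb3 were singled out here after their values were seen.

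**Figure D5:**
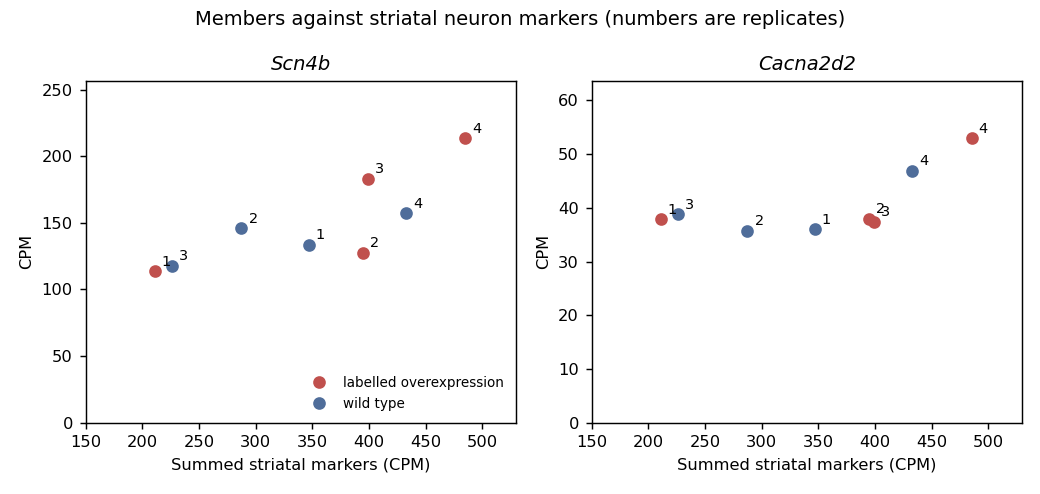
Level of Scn4b and Cacna2d2 in CPM against the summed level of 8 striatal neuron markers in CPM, 1 point per library labelled with its replicate number; red is labelled overexpression and blue is wild type. Overexpression replicate 4 lies at the right end of each plot, with 214 CPM of Scn4b and 52.99 CPM of Cacna2d2.

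Proteins that anchor, modulate or act downstream of these channels were followed in a list of 46 genes, of which 45 were tested. None passed the adjusted threshold. At an unadjusted edgeR p under 0.05, 2 were higher (4.44%, against 5.24% of all genes) and 4 were lower (8.89%, against 5.43%). The higher genes were both scaffold genes of the axon initial segment, where sodium channels cluster. Sptbn4, which encodes beta-IV spectrin, stood at 222 ± 14.95 CPM against 201 ± 8.81 CPM, log2 fold change 0.14 (SE 0.054, edgeR adjusted p = 0.36). Trim46, a microtubule organizer of the proximal axon, stood at 77.03 ± 3.12 CPM against 71.03 ± 1.52 CPM, log2 fold change 0.12 (SE 0.052, edgeR adjusted p = 0.43). With the GC correction Sptbn4 and Trim46 were at 0.025 and 0.011. In the same list of 5 scaffold genes, Nfasc had a log2 fold change of 0.022, Ank3 of -0.071 and Nrcam of -0.11. The median of that list was 0.022, and -0.042 with the GC correction.

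The 4 lower genes were Bdnf, Nalcn, Erc2 and Rims2. The neurotrophin gene Bdnf, which is induced by calcium entry through L-type channels, stood at 19.3 ± 2.36 CPM against 23.6 ± 2.49 CPM, log2 fold change -0.29 (SE 0.095, edgeR adjusted p = 0.31). The sodium leak channel gene Nalcn stood at 128 ± 1.56 CPM against 141 ± 7.10 CPM, log2 fold change -0.14 (SE 0.050, edgeR adjusted p = 0.35). Erc2 and Rims2, which encode active zone proteins that hold presynaptic calcium channels near vesicles, had log2 fold changes of -0.14 (SE 0.050) and -0.12 (SE 0.051). With the GC correction the 4 were at -0.20, -0.076, -0.10 and -0.12, in that order. All 5 release-site genes had fold changes below 0, with a median of -0.065 on the log2 scale. So did all 4 fibroblast growth factor homologous factor genes (Fgf11 to Fgf14), whose products bind sodium channel tails, with a median of -0.11. Of the 7 tested Cacng genes, 6 were above 0, with a median of 0.084. Over all 17636 genes tested, 8731 were below 0 and 8905 above it. After the GC correction 9257 of all genes tested were below 0 and 8379 above it, with a median of -0.0063. The medians of these lists were then -0.094, -0.057 and -0.0063, and Fgf14 stood above 0, at 0.010. The genes then at an unadjusted edgeR p under 0.05 were Bdnf, Rims2, Cacng3 and Kcnn2, all lower (8.89% of the list, against 2.59% of all genes).

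Without replicates 2 and 3 labelled overexpression, a choice made after seeing the data, 0 of 27 members passed the adjusted threshold (against 0.0054% of all genes) and 1 stood at an unadjusted edgeR p under 0.05 (3.70%, against 7.08% of all genes). The remaining groups did not overlap for 2 members, Cacna1b and Cacna1f, both higher, where 8.85% of all genes were higher and 8.63% lower without overlap. With the replicate number as a block, 5 members stood at an unadjusted edgeR p under 0.05, against 10.9% of all genes, and none of them passed the adjusted threshold (0.00567% of all genes). The number at an unadjusted p under 0.05, 3 with all libraries, was 1 without overexpression replicate 3 (3.70%, against 7.73% of all genes), 6 without wild-type replicate 3 (22.2%, against 13.8%) and 4 without overexpression replicate 2 (14.8%, against 11.3%). It was 2 (7.41%) without any other single library, against 7.40% to 9.77% of all genes.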

How the data were processed

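The deposited values are the authors' unnormalised counts of reads per gene, with columns matched to libraries by name. The submitters' processing notes name Trimmomatic 0.39, STAR 2.7.10, featureCounts 2.0.3, mm10 and GRCm38, without roles. The sources used here do not give the strand setting, the annotation release or the handling of multi-mapping reads. Symbols, coordinates, exon lengths and transcript GC content (longest transcript) came from GENCODE M21 (GRCm38), matched by identifier for 54409 of 54446 genes.

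Counts were filtered with filterByExpr (17636 genes left) and scaled by TMM, and the libraries labelled overexpression were compared with wild type by edgeR's robust quasi-likelihood test (edgeR 4.0.16, R 4.3.3) over all genes, with Benjamini-Hochberg adjustment and a threshold of 0.05. Intervals are 95% intervals from the SE and the test's degrees of freedom. The common biological coefficient of variation was 12.9%. The GC correction was an offset taken, library by library, from a natural spline (5 degrees of freedom) of the deviation of log2 CPM from the gene's mean on GC content, fitted over genes of at least 1 CPM. Alternatives were RLE and upper-quartile scaling, other filters, DESeq2 1.42.0, limma-voom 3.58.1, a replicate block, no robust estimation, and each library left out. The fit was tested on simulated data. No library was a copy of another (chi-square per degree of freedom at least 9.07).

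Every member is accounted for; partner genes were named by lowest unadjusted p, up to 4 per direction. The members, lists and tests were chosen with earlier results of these data known. Some genes of these families are not reported here: they enter no count of members, but stayed in the fits over all genes.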

Additional observations from a re-analysis of the deposited data

Results flagged for a closer look

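In 5 of the 54 sets of 4 libraries (27 members in each group), 1 library stood far from the other 3 by Dixon's ratio of gap to range at its 95% critical value, where chance gives about 1 in 20. Cacna2d2 was at 52.99 CPM in overexpression replicate 4, against 37.4 to 38.00 CPM in the others of its group. Overexpression replicate 2 was low for Scn1a, at 155 CPM against 192 to 199 CPM, and for Cacna1i, at 152 CPM against 179 to 184 CPM. Scn2a was at 518 CPM in wild-type replicate 2, against 437 to 449 CPM. Scn9a was at 1.47 CPM in overexpression replicate 3, against 1.73 to 1.79 CPM. That library had the largest total, and its 89 raw counts of Scn9a lay within the 84 to 93 of the others of its group.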

How the results depend on the processing

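No member passed the adjusted threshold under any of the 19 alternatives, with a lowest adjusted p of 0.057 (Cacna2d1 with no low-count filter), and 483 of 510 member fold changes under them kept their direction. The sign turned in 10 members. With the GC correction the log2 fold changes were -0.058 for Cacna1a, -0.013 for Cacna1h, -0.062 for Cacna1i, -0.0031 for Cacna2d2, -0.039 for Cacnb1, 0.041 for Cacnb2, 0.015 for Cacnb4 and 0.069 for Scn1a, and with the GC correction and the replicate block -0.054 for Cacna1a, -0.0099 for Cacna1h, -0.060 for Cacna1i, -0.010 for Cacna2d2, -0.038 for Cacnb1, 0.043 for Cacnb2, 0.014 for Cacnb4 and 0.063 for Scn1a. Scn1a was at 7.1e-05 with upper-quartile scaling and, without replicates 2 and 3 labelled overexpression, at 0.066, where Scn10a was at -0.081. Leaving out 1 library at a time gave -0.060 to 0.17 for Cacna2d2, -0.22 to 0.094 for Cacna2d4, -0.14 to 0.38 for Scn10a and -0.040 to 0.071 for Scn1a. The cause of these changes of sign was not tested.

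Genes called over all genes, 6 in the main test, numbered 44 with DESeq2, 2 with limma-voom, 2 without robust estimation, 83 with no low-count filter, 1 with the replicate block, 1 without replicates 2 and 3 labelled overexpression, and 1 to 8 with 1 library left out. Members at an unadjusted p under 0.05, 3 in the main test, numbered 5 with no low-count filter (9.74% of all genes), 1 with the GC correction (5.07%), 2 with the GC correction and the replicate block (4.75%), 1 without replicates 2 and 3 labelled overexpression (7.08%) and 1 to 6 with 1 library left out (7.40% to 13.8%). The replicate block gave 5 members (10.9% of all genes). Members whose groups do not overlap, 0 in the main test, numbered 2 without replicates 2 and 3 labelled overexpression and 0 to 2 with 1 library left out, where 7.93% to 12.7% of all genes did not overlap. Partner genes at an unadjusted p under 0.05, 6 in the main test (10.7% of all genes), numbered 14 with no low-count filter (9.74%). With 1 library left out they numbered 5 to 13 (7.40% to 13.8% of all genes). Same-numbered libraries did not deviate together (correlations -0.051 to 0.027, with 0 of 8 libraries closest to their own number). No pairing by replicate number was seen, but so few pairs could not show a weak one, and the labels do not state any.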
